A study of Homo sapiens with 12 samples.

Results

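The genes described here are 10 nuclear genes whose proteins transcribe mitochondrial DNA or stabilise, polyadenylate and degrade mitochondrial RNA. They were picked by name for these roles and by no threshold on a measured value, but with earlier results of these data known. Each of the 10 matched 1 of the 60675 gene IDs in the count table. POLRMT, TFAM, TFB2M, TEFM and MTERF1 act in transcription, LRPPRC and SLIRP in RNA stability, MTPAP in polyadenylation, and PNPT1 and SUPV3L1 in RNA decay.

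RNA was sequenced from SW1783, an established human astrocytoma line, after 24 h with a hot water extract of Aconitum carmichaeli Debeaux (ACD), a medicinal herb. The 4 groups had 3 libraries each, namely the vehicle, which was PBS with 2% DMSO, and 3 doses of ACD, 20 µg/mL (low), 100 µg/mL (medium) and 500 µg/mL (high). The 2% is that of the vehicle solution, and the final DMSO in the medium is not stated. All groups came from the same line grown without a genetic change named in the labels, and whether the 3 libraries of a group came from separate cultures is not stated, so p-values measure the spread between these libraries, which may be technical. ACD is the name in the sample titles and treatment labels, but the protocol text given with them is about Poria cocos, so the identity of the extract rests on the former. The diluent of the lower doses is not stated in the sources used here.

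Human mitochondrial DNA is copied into long transcripts that carry rRNAs, tRNAs and mRNAs of the respiratory chain, and these are cut apart at the tRNAs. POLRMT is the mitochondrial RNA polymerase, TFAM packs the DNA and bends it at promoters, TFB2M opens the promoter, TEFM keeps the polymerase moving, and MTERF1 binds within the tRNA gene that follows the rRNAs, where it can stop transcription. LRPPRC and SLIRP form a complex that protects mitochondrial mRNAs, MTPAP adds their poly(A) tails, and the SUPV3L1 helicase with the PNPT1 ribonuclease forms the complex that degrades mitochondrial RNA.

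Total counts per library lay between 18863863 and 24200576, and the lowest expected count of any of the 10 genes in any library was 144 for TEFM. Of 9 astrocyte or glial markers, 4 (VIM, SOX9, SLC1A3 and NES) had vehicle means of at least 100 normalised counts, while GFAP and S100B were at 2.79 and 2.29 and AQP4 at 0. The summed level of the 9, most of it VIM, lay between 86748 and 94905 in the vehicle libraries and between 108762 and 110664 at the high dose. Of the 4 only VIM rose, from a mean of 88412 with vehicle to 108048 at the high dose. SLC1A3 fell from 690 to 126, NES from 214 to 64.7 and SOX9 from 1434 to 1206. Summed markers of epithelium (7 genes, KRT20 and CDX2 at 0) lay between 4861 and 5073 with vehicle and between 1797 and 1888 at the high dose. Most of that sum was KRT18, with means of 4600 and 1575, while EPCAM and CDH1 had vehicle means of 1.72 and 0.347. Summed markers of neurons (5 genes) lay between 3025 and 3174 with vehicle and between 1204 and 1219 at the high dose. Those of immune cells (5 genes, CD3E at 0) lay between 3081 and 3252 and between 3918 and 4202. Within a list members differed, since CD68 went from 2864 to 3953 and PTPRC from 275 to 84.8, and among the neuron markers MAP2 went from 181 to 322 and TUBB3 from 2212 to 707. The part of these shifts in the results below was not tested, and in bulk samples fewer cells of a kind and less RNA per cell cannot be told apart.

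At the high dose the 10 genes moved in both directions (DESeq2 Wald test on all 12 libraries). SUPV3L1, of the decay complex, rose 2.11-fold and POLRMT, the polymerase, 1.67-fold, while the termination factor MTERF1 fell to 0.619 and the elongation factor TEFM to 0.656 of the vehicle level. These 4 were differentially expressed genes (DEGs), defined by an adjusted p under 0.05 and a fold change over 1.5 either way. Of all 19453 genes tested, 8.66% were DEGs that rose and 9.57% DEGs that fell, against 2 and 2 of the 10. By adjusted p alone 3 of the 10 rose (POLRMT, LRPPRC and SUPV3L1) and 4 fell (TFAM, TEFM, MTERF1 and SLIRP), beside 23.9% and 22.6% of all genes. The median log2 fold change of the 10 was 0.01, beside 0.02 over the 11264 genes with a mean of at least 100 normalised counts.

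**Figure D1:**
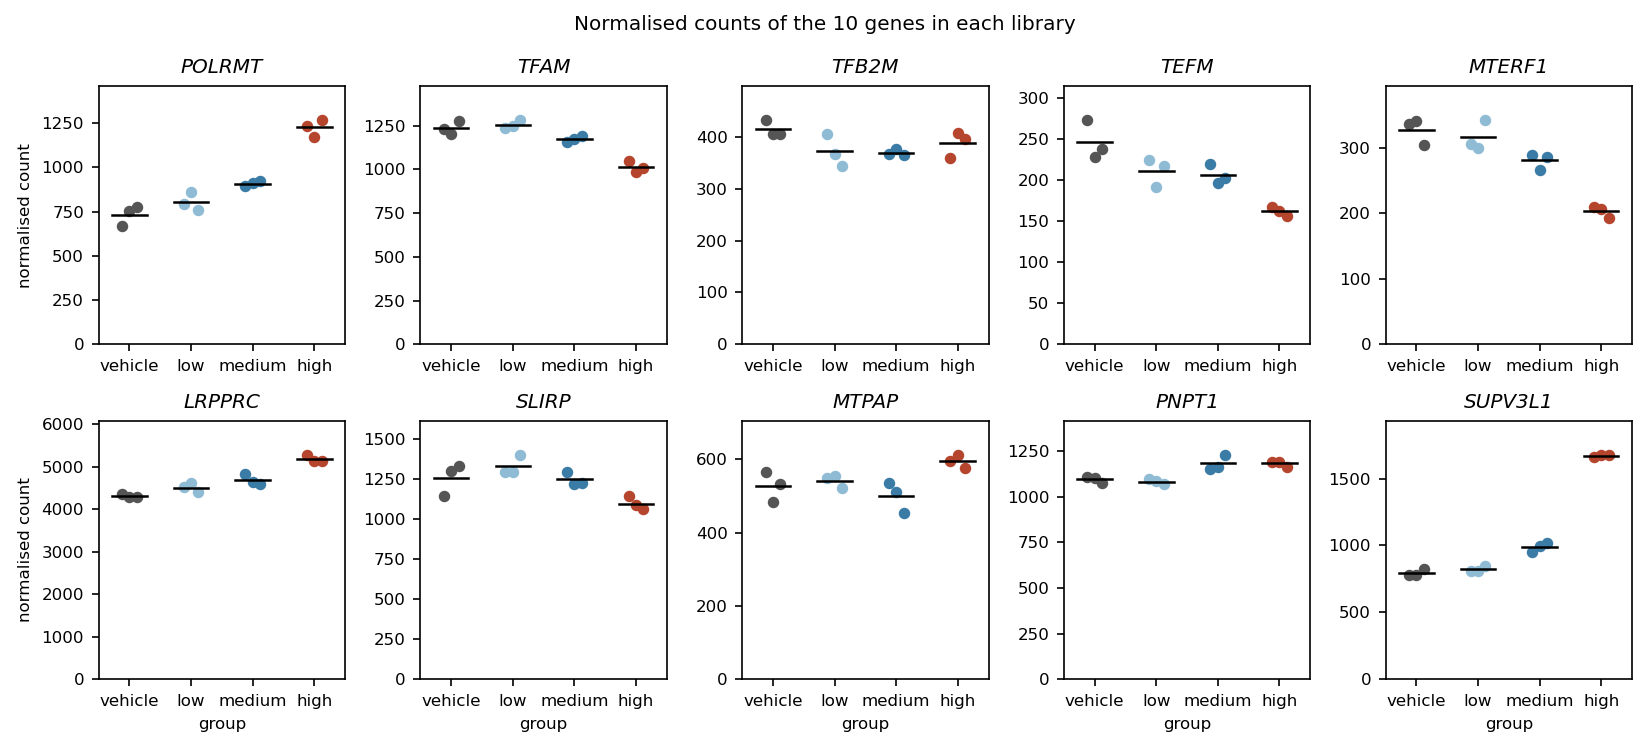
Normalised counts (vertical axes, from 0) of each of the 10 genes in each of the 12 libraries, by group; points are libraries and lines are group means. SUPV3L1 and POLRMT were highest in all 3 high dose libraries (1661 to 1681 and 1173 to 1269), and TEFM and MTERF1 were lowest there (156 to 167 and 194 to 209.5).

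POLRMT (ENSG00000099821, GRCh38 chromosome 19, 617221 to 633537, minus strand) had 670.2, 752 and 773 normalised counts in the vehicle libraries, 794.5, 858 and 761 at the low, 892.5, 910.5 and 919.7 at the medium and 1236, 1173 and 1269 at the high dose. Only the vehicle and low dose libraries overlapped between neighbouring doses, and the high dose libraries stood clear of all others. The log2 fold change against vehicle was 0.14 (DESeq2 adjusted p 0.355, SE 0.0696) at the low, 0.31 (DESeq2 adjusted p 6.05e-05, SE 0.0688) at the medium and 0.74 (DESeq2 adjusted p 3.23e-27, SE 0.0673) at the high dose. A pseudogene copy, POLRMTP1, took at most 22 counts in a library, and the copies of TFAM, MTERF1, SLIRP and PNPT1 at most 2.

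The other core initiation factors did not follow the polymerase. TFAM (chromosome 10, 58385345 to 58399220, plus strand), the packaging and promoter factor, had 1233, 1204 and 1277 normalised counts with vehicle, 1236, 1248 and 1285 at the low, 1157, 1177 and 1189 at the medium and 1049, 984 and 1006 at the high dose. Its high dose libraries all lay below the vehicle libraries, and the level fell by 18.2% (log2 fold change -0.29, DESeq2 adjusted p 4.17e-07, SE 0.0543). TFB2M (chromosome 1, 246540561 to 246566261, minus strand), the promoter opening factor, had 433.5, 406 and 406 with vehicle, 406, 368 and 344 at the low, 367, 376.5 and 366 at the medium and 360, 407 and 396 at the high dose. The high dose libraries overlapped those of the vehicle, and the log2 fold change of -0.09 (95% interval -0.28 to 0.09, DESeq2 adjusted p 0.445) missed the threshold.

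TEFM (chromosome 17, 30897336 to 30906238, minus strand), the elongation factor, had 274, 228 and 238 normalised counts with vehicle, 224, 192 and 217 at the low, 219, 197 and 203 at the medium and 167, 162 and 156 at the high dose. The dosed libraries of every group lay below all vehicle libraries, and the high dose libraries below all others. The fall passed the test at the high dose (log2 fold change -0.61, DESeq2 adjusted p 9.96e-06, SE 0.129) and missed it at the medium dose (-0.26, DESeq2 adjusted p 0.108). At the low dose TEFM had no adjusted p, because its mean count lay under the filter DESeq2 sets. Without vehicle replicate 1 its high dose log2 fold change was -0.53 and without high dose replicate 3 it was -0.58, both short of 1.5-fold, so that 3 DEGs were left among the 10. Of its exon bases 20.5% overlap a gene on the opposite strand (ENSG00000275185), and whether the counting used strand is not stated, so that reads of the pair may not be told apart.

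MTERF1 (chromosome 7, 91692008 to 91880702, minus strand), the termination factor, had 337, 341 and 305 normalised counts with vehicle, 307, 299.9 and 343 at the low, 289.8, 266.5 and 286.5 at the medium and 209.5, 206 and 194 at the high dose. The low dose libraries overlapped those of the vehicle, the medium dose libraries lay below them and the high dose libraries lay below all others. Its log2 fold change was -0.69 (DESeq2 adjusted p 2.54e-09, SE 0.111) at the high and -0.22 (DESeq2 adjusted p 0.1) at the medium dose.

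The site at which MTERF1 is known to bind lies in MT-TL1, a tRNA gene for leucine, at chrM:3230-3304 on the plus strand. MT-RNR2, the large rRNA, ends directly before it and MT-ND1, the first mRNA gene after the rRNAs, starts at 3307. The stretch is shown because the rRNAs and the mRNAs, whose counts are set beside the 10 genes below, meet there. It is chrM:3200-3336 of GRCh38, plus strand, with MT-TL1 in capitals.
MT-RNR2 end to MT-ND1 start: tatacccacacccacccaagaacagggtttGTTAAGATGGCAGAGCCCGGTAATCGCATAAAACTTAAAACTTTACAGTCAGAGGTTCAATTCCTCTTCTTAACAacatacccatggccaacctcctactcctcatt

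The promoters of the 4 DEGs are shown because these genes moved at the same dose. Each runs from 250 bases before to 50 bases after the annotated start, 5′ to 3′ on the gene's strand, from RefSeq on GRCh38.p14, and capitals mark matches on either strand to any of 5 motifs. The motifs were the NRF1 core GCGCATGC, the ETS site CCGGAAGT, the ATF4 element core TGATGNAA, the E-box CACGTG and the YY1 core AAGATGGC. POLRMT lies at chr19:633488-633787, minus strand, SUPV3L1 at chr10:69179984-69180283, plus strand, MTERF1 at chr7:91880653-91880952, minus strand, and TEFM at chr17:30906189-30906488, minus strand.
POLRMT: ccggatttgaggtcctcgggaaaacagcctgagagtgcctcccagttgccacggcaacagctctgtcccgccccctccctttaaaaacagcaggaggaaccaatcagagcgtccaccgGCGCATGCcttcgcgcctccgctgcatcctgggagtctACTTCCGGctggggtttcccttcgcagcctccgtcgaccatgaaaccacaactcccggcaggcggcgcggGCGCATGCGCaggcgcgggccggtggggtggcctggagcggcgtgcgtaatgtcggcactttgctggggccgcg
SUPV3L1: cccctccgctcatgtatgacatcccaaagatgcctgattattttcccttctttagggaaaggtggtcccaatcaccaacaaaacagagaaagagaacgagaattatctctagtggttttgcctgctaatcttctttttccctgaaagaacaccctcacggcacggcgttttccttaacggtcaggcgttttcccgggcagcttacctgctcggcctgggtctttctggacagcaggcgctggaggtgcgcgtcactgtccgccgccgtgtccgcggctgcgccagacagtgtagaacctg
MTERF1: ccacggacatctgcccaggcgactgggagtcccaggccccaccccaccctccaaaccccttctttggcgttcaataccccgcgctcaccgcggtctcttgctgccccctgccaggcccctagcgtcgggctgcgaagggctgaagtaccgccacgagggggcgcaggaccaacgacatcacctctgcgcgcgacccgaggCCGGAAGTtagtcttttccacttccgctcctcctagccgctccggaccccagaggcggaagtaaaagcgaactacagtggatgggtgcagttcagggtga
TEFM: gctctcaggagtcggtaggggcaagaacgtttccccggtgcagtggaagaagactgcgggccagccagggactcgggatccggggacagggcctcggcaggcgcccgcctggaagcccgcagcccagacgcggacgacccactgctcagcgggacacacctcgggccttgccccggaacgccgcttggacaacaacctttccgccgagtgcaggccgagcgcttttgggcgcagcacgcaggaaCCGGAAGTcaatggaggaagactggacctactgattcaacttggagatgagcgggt

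The POLRMT window held the NRF1 core 132, 24 and 22 bases before the start, the last pair overlapping on opposite strands, and the ETS site 94 bases before it. MTERF1 held the ETS site 50 and TEFM 6 bases before the start, so that this site occurred both in genes that fell and in one that rose. The SUPV3L1 window held none of the 5 motifs. Among all 10 genes the NRF1 core was in the windows of POLRMT, TFB2M and MTPAP and the ETS site in those of POLRMT, TEFM and MTERF1, beside 3.05% and 4.14% of 35116 promoters in the table. The YY1 core was in the window of SLIRP (2.89% of all promoters), and neither the ATF4 core (3.62%) nor the E-box (7.26%) was in a window of the 10. A match is a description of letters in these windows.

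LRPPRC (chromosome 2, 43886224 to 43996226, minus strand), which shields mitochondrial mRNAs, rose and its partner SLIRP fell. LRPPRC had 4361, 4283 and 4286 normalised counts with vehicle, 4514, 4619 and 4394 at the low, 4834, 4629 and 4592 at the medium and 5286, 5144 and 5138 at the high dose. Every dosed library lay above every vehicle library, and the medium and low dose libraries overlapped. The log2 fold change was 0.27 (DESeq2 adjusted p 3.88e-16, SE 0.0318) at the high and 0.12 (DESeq2 adjusted p 0.00131, SE 0.0321) at the medium dose, below 1.5-fold in both.

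SLIRP (chromosome 14, 77708071 to 77761104, plus strand), a small RNA-binding protein, had 1143, 1299 and 1335 normalised counts with vehicle, 1293, 1298 and 1405 at the low, 1296, 1221 and 1229 at the medium and 1146, 1087 and 1063 at the high dose. The lowest vehicle library lay below the highest high dose library, so the groups overlapped. The log2 fold change was -0.20 (DESeq2 adjusted p 0.00458, SE 0.0633), and without vehicle replicate 3 it was -0.16 with a DESeq2 adjusted p of 0.0573. Another gene on the same strand, C14orf178, covers 10.3% of the exon bases of SLIRP, and SNW1 on the opposite strand covers 4.48%.

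MTPAP (chromosome 10, 30309801 to 30374448, minus strand), the poly(A) polymerase, had 566, 484.5 and 533 normalised counts with vehicle, 550.2, 554 and 521 at the low, 534, 509.8 and 454 at the medium and 595, 613.5 and 576 at the high dose. All high dose libraries lay above all vehicle libraries, yet the log2 fold change of 0.18 (95% interval 0.01 to 0.34) had a DESeq2 adjusted p of 0.0757. It passed under edgeR (adjusted p 0.0197), under a filter on low counts (DESeq2 adjusted p 0.0474) and without vehicle replicate 1 (DESeq2 adjusted p 0.0421). Genes on the opposite strand cover 13.4% of its exon bases and those on the same strand 19.8%, most of the latter GOLGA2P6.

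SUPV3L1 (ENSG00000156502, chromosome 10, 69180234 to 69209099, plus strand), the helicase of the decay complex, had the largest change of the 10 at the high dose. Its normalised counts were 781, 781.5 and 822 with vehicle, 808, 809 and 845.5 at the low, 954, 994 and 1021 at the medium and 1661, 1678 and 1681 at the high dose. The low dose libraries overlapped the vehicle libraries, the medium dose libraries stood above both and the high dose libraries stood far above those, with an SD of 10.7 around a mean of 1673. The log2 fold change against vehicle was 0.05 (DESeq2 adjusted p 0.801) at the low, 0.32 (DESeq2 adjusted p 6.42e-07, SE 0.0583) at the medium and 1.08 (DESeq2 adjusted p 2.06e-81, SE 0.0557) at the high dose.

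PNPT1 (chromosome 2, 55634061 to 55693863, minus strand), the ribonuclease that works with SUPV3L1, had 1108, 1102 and 1077 normalised counts with vehicle, 1095, 1084 and 1071 at the low, 1153, 1164 and 1232 at the medium and 1192, 1189 and 1166 at the high dose. Medium and high dose libraries all lay above the vehicle libraries by a small step. The log2 fold change was 0.11 at the high dose (95% interval 0.00 to 0.21, DESeq2 adjusted p 0.0826) and 0.11 at the medium dose (95% interval 0.01 to 0.22, DESeq2 adjusted p 0.106), and edgeR passed both (adjusted p 0.0153 and 0.0231). The partners in decay thus had high dose fold changes of 2.11 and 1.08, and the difference between them was not itself tested.

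**Figure D2:**
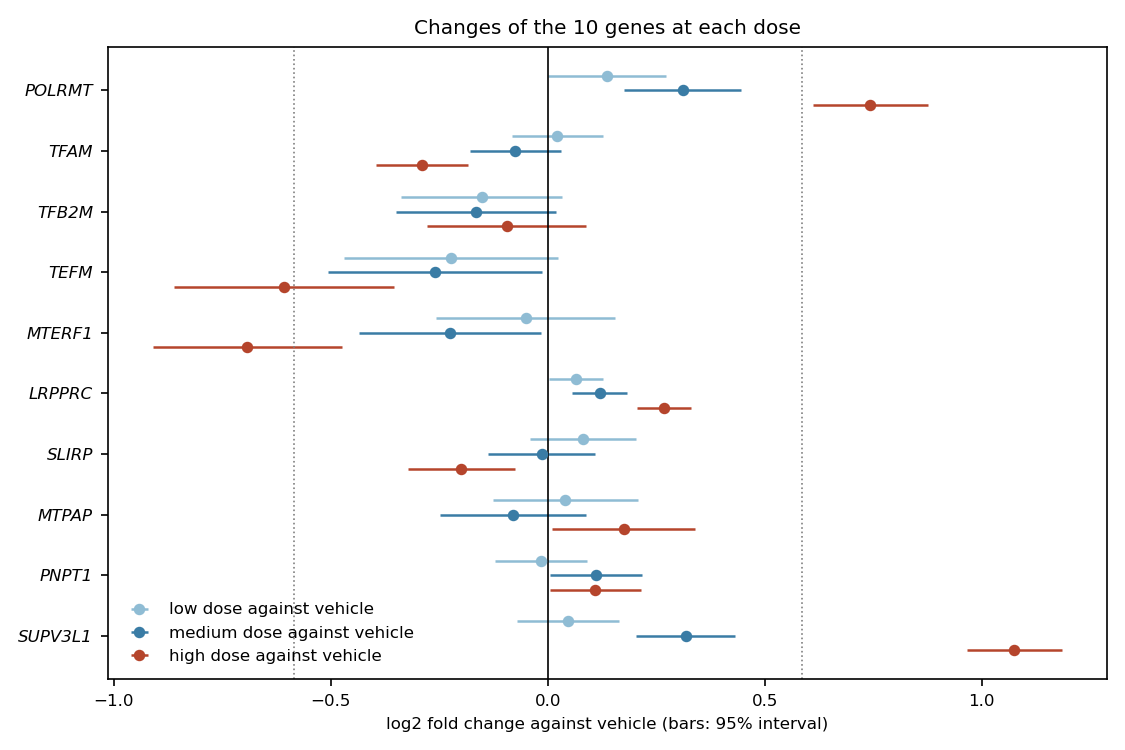
Log2 fold change against vehicle (horizontal axis) of the 10 genes at the low, medium and high dose, with 95% intervals; dotted lines mark 1.5-fold. The high dose intervals of SUPV3L1 (0.97 to 1.18) and POLRMT (0.61 to 0.88) lay beyond 1.5-fold, and those of TEFM and MTERF1 crossed it.

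At the medium dose 0 of the 10 were DEGs in DESeq2 and in edgeR, beside 3.81% of the 14082 genes tested. By adjusted p alone POLRMT, LRPPRC and SUPV3L1 rose, 3 of 10 beside 15.1% of all genes, and 0 of 10 fell beside 14.5%. MTERF1 and TEFM had unadjusted p of 0.0357 and 0.0393 there, and edgeR passed both. In all edgeR counted 6 of the 10, beside 5695 of the 15983 genes it tested. At the low dose 0 of the 9 genes with an adjusted p passed, beside 3.29% of all genes tested. LRPPRC had an unadjusted p under 0.05 there (0.0426), and edgeR passed 0 of the 10, beside 402 of 15983 genes. The comparisons with vehicle share the same 3 vehicle libraries.

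For each of the 4 DEGs the step from the medium to the high dose was larger than that from vehicle to the medium dose, though the difference of the steps was not tested. These 4 were picked by their high dose change, which favours a larger last step. From the medium to the high dose SUPV3L1 was the 1 DEG of the 10 (log2 fold change 0.76, DESeq2 adjusted p 1.98e-42, SE 0.0543), beside 10.2% of all 16467 genes tested. By adjusted p alone POLRMT (0.43), LRPPRC (0.15), MTPAP (0.26) and SUPV3L1 were higher, 4 of 10 beside 21.1%, and TFAM (-0.22), TEFM (-0.35), MTERF1 (-0.47) and SLIRP (-0.19) were lower, 4 of 10 beside 19.8%. Leaving out 1 library ended 3 of these calls, that of TEFM without high dose replicate 2 or 3 or medium dose replicate 1 or 3 (DESeq2 adjusted p up to 0.102), that of SLIRP without high dose replicate 3 or medium dose replicate 1 (up to 0.069) and that of MTPAP without high dose replicate 2 or medium dose replicate 3 (up to 0.115). The step from the low to the medium dose passed for SUPV3L1 alone (0.27, DESeq2 adjusted p 5.31e-05, SE 0.0582), 1 of 10 beside 18.9% of all genes. POLRMT (0.17, DESeq2 adjusted p 0.0552) did not pass there. A likelihood ratio test for any difference among the 4 groups passed for 9 of the 10, beside 45.8% of all genes, with TFB2M short of the threshold (adjusted p 0.43) and MTPAP (0.0491) and PNPT1 (0.0449) just past it. With any 1 library left out it passed for 7 or 8. Examples are 8 without vehicle replicate 1 (8225 of 18683 genes) and 7 without high dose replicate 2 (7786 of 17468 genes).

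Levels were compared between genes only as normalised counts per kb of the canonical transcript. With vehicle SLIRP was highest at 3348 per kb, followed by LRPPRC at 653 and SUPV3L1 at 321, then TFAM at 246, PNPT1 at 241, TFB2M at 233, POLRMT at 194 and TEFM at 189, with MTPAP at 94.9 and MTERF1 at 83.1 lowest. The first 3 and the last 3 kept their places in every group. POLRMT moved from rank 7 with vehicle to rank 4 at the high dose (325 per kb), above PNPT1 (260), TFB2M (217) and TFAM (202). At the high dose SUPV3L1 at 676 per kb came near LRPPRC at 786.

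The mitochondrial rRNAs followed another order of doses. Their share of all counts was 0.922%, 0.912% and 0.96% in the vehicle libraries, 3.33%, 3.01% and 3.1% at the low, 7.76%, 8.05% and 7.67% at the medium and 5.96%, 5.76% and 6.06% at the high dose. The groups did not overlap, and every dose gave the smallest p an exact two-sided permutation test of 3 against 3 libraries allows, 0.1. The share was highest at the medium dose. There 3 of the 10 genes had passed by adjusted p, beside 29.5% of all genes, and none as a DEG, beside 3.81%. At the low dose the share was already 3.38 times that of the vehicle. None of the 9 tested passed there, beside 3.29% of all genes. Whether the 10 genes bear on the rRNA share was not tested.

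By gene, MT-RNR1, the small rRNA, had log2 fold changes of 2.64, 4.47 and 4.30 at the low, medium and high dose, and MT-RNR2 of 1.70, 3.01 and 2.55. The weakest of these 6 changes had a DESeq2 adjusted p of 7.94e-290. From the medium to the high dose MT-RNR1 fell by 0.17 (DESeq2 adjusted p 0.00356, SE 0.0513) and MT-RNR2 by 0.45 (DESeq2 adjusted p 2.23e-21, SE 0.0463) on the log2 scale, while SUPV3L1 and POLRMT rose over the same step. With the replicate number as a block the MT-RNR1 fall did not pass (DESeq2 adjusted p 0.0972). Whether RNA was selected by its tail is not stated in the sources used here, and its part in the rRNA share was not tested.

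The summed share of the 13 mitochondrial mRNAs was 4.18%, 4.11% and 4.33% with vehicle, 4.23%, 3.44% and 3.79% at the low, 2.8%, 2.79% and 2.89% at the medium and 3.32%, 3.23% and 3.23% at the high dose. The medium and high dose libraries lay below the vehicle libraries (exact permutation p = 0.1 for each, the smallest possible), and the low dose libraries overlapped them (exact permutation p = 0.3). The ratio of rRNA to mRNA counts averaged 0.222 with vehicle (SD 0.000702, n = 3), and 0.826 (SD 0.0455), 2.77 (SD 0.118) and 1.82 (SD 0.0495) from the low to the high dose.

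**Figure D3:**
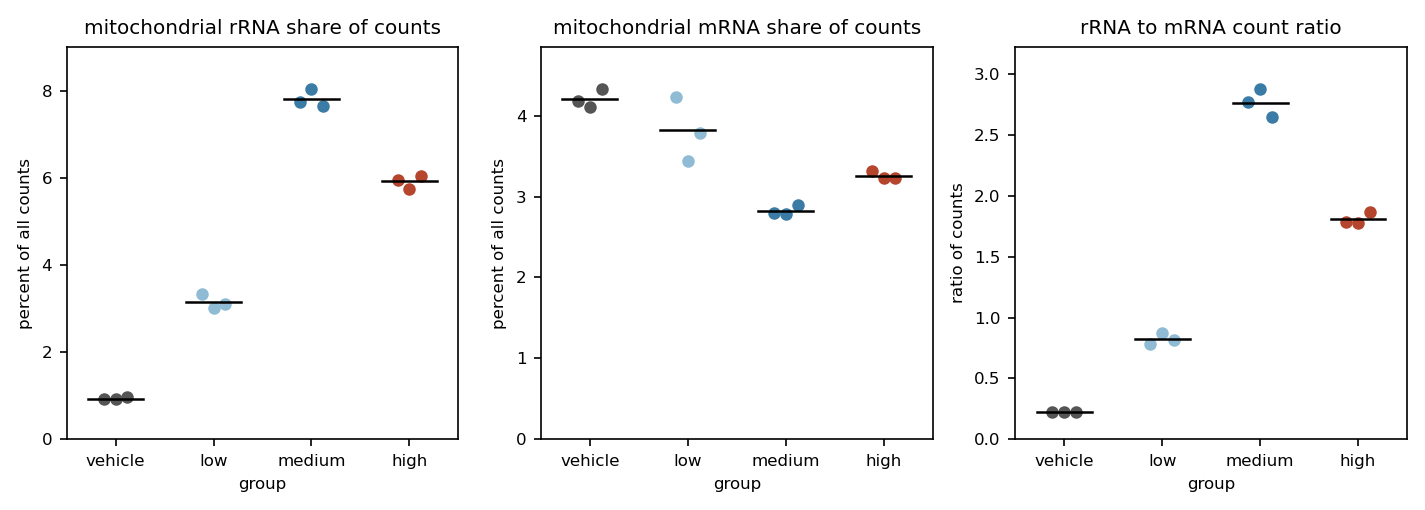
Share of all counts on the 2 mitochondrial rRNAs and on the 13 mitochondrial mRNAs (percent) and the ratio of rRNA to mRNA counts, in each library by group; lines are group means. The rRNA share and the ratio peaked at the medium dose (7.83% and 2.77) and were lower at the high dose (5.93% and 1.82).

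By its place MT-TL1 parts the rRNA genes from the mRNA genes, so any contrast of these falls there. A part of MTERF1 in the contrast was not tested. The tRNA of MT-TL1 was itself at 0 counts in every library. MT-ND1 and MT-ND2, subunits of respiratory complex I and the first mRNA genes past it, rose at the low dose (log2 fold change 0.76, DESeq2 adjusted p 6.52e-06, and 0.70, DESeq2 adjusted p 6.09e-05) and were at 0.15 and 0.01 at the medium dose, where neither passed. Of the 13 mRNAs 7 fell by adjusted p at the low dose, between -0.16 and -0.49, beside 115 of 9304 genes. At the medium dose 8 fell, beside 14.5% of all genes. There MT-CO2, MT-ATP6, MT-CO3, MT-ND4L and MT-ND4 were DEGs, beside 208 of 14082 genes that were DEGs and fell. The lowest values were -0.78 for both MT-CO2 and MT-ND4L. Falls by adjusted p numbered 7 at the high dose, beside 22.6% of all genes, and 0 were DEGs. At the high dose the mRNAs ran from -0.56 for MT-CO2 (DESeq2 adjusted p 5.43e-25, SE 0.0532), a subunit of cytochrome c oxidase, to 0.08 for MT-ND2 (DESeq2 adjusted p 0.703). MT-ND6, which is the 1 mRNA coded on the other strand, was at 0.05, 0.06 and 0.02 at the 3 doses and passed at none.

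**Figure D4:**
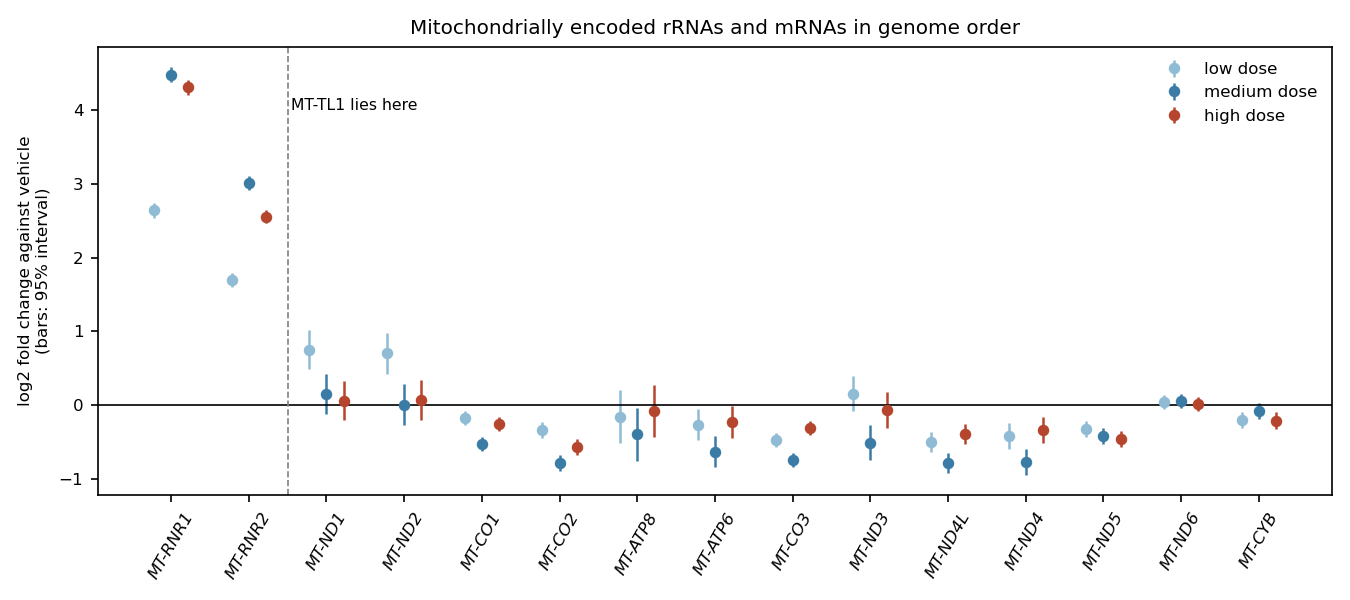
Log2 fold change against vehicle (vertical axis) of the 2 rRNA genes and 13 mRNA genes of mitochondrial DNA in genome order, at the low, medium and high dose, with 95% intervals; the dashed line marks the place of MT-TL1. Both rRNA genes lay between 1.70 and 4.47, and no mRNA gene lay above 0.76.

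Around the 10 genes stand 70 others in 7 lists of mitochondrial gene expression, written from general knowledge with earlier results of these data known. At the high dose 31 of the 70 passed by adjusted p, 15 higher and 16 lower, and 5 were DEGs, 3 higher and 2 lower. Over all genes tested, 46.5% passed and 18.2% were DEGs, so in this fit the passing share was near the background and the DEG share below it. The background rises where genes of low count are left out. Under the low count filter 31 of the 70 passed, beside 9371 of 15978 genes. In edgeR 34 passed, beside 10460 of 15983 genes. Under both settings the passing share of the lists lay below the background. Counts for the single lists below stand beside the 23.9% of all genes that rose and the 22.6% that fell. The median log2 fold change of the 70 was -0.02. The medium dose passed 16 of them, of which 6 were higher, beside 29.5% of all genes. None of the 58 with an adjusted p passed in DESeq2 at the low dose, where 6 of the 70 had an unadjusted p under 0.05 and edgeR passed 1.

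Of the factors for other steps of transcription, 2 of 6 rose and 2 fell. MTERF2, a paralogue of MTERF1, fell with it (log2 fold change -0.70, DESeq2 adjusted p 1.45e-05, SE 0.151, vehicle mean 204 ± 11.4, SD, n = 3), while MTERF3, another paralogue known to hold transcription down, rose (0.38, DESeq2 adjusted p 2.35e-05). TFB1M, the rRNA methyltransferase related to TFB2M, rose by 0.33 (DESeq2 adjusted p 0.0294), a call lost without vehicle replicate 1 or 2 or high dose replicate 2 or 3 (DESeq2 adjusted p up to 0.144). Opposite-strand exons cover 30.7% of TFB1M and 11.6% of MTERF2.

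In transcript processing 5 of 13 genes passed, all of them lower, beside 22.6% of all genes that fell. FASTKD5, needed to cut transcripts at places without a tRNA, fell from 436.5, 444 and 406 normalised counts with vehicle to 208, 219.8 and 188 at the high dose (-1.06, DESeq2 adjusted p 7.79e-23, SE 0.105) and also at the medium dose (-0.50, DESeq2 adjusted p 7.61e-06). FASTKD3, which acts on single mRNAs (-0.51), and TRMT10C, a subunit of the nuclease that frees the 5′ ends of tRNAs (-0.45, DESeq2 adjusted p 0.00021), fell as well. Among 6 other genes of RNA turnover 1 rose, the endoribonuclease LACTB2 (0.23), and 3 fell, among them EXOG, a mitochondrial nuclease (-0.49), and PDE12, which removes poly(A) tails (-0.26).

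In the rRNA modification list 3 of 13 genes were higher and 4 lower, near the 23.9% and 22.6% of all genes. RPUSD3, a pseudouridine synthase family member, rose by 0.49, whereas MRM2, which methylates the large rRNA, was lower by -0.50 and TRMT2B, which methylates mitochondrial RNA, by -0.49. Another gene model on the same strand covers 90.9% of MRM2, so its counts are uncertain. In ribosome assembly 2 of 10 passed, MPV17L2 (0.68, DESeq2 adjusted p 1.1e-16, SE 0.08) and NOA1 (0.35), both higher.

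Among 12 genes of mitochondrial DNA replication and the nucleoid 4 rose and 2 fell, near the 46.5% of all genes that passed. LIG3, the mitochondrial DNA ligase, rose from 1066, 1135 and 1131 to 1735, 1652 and 1775 normalised counts (0.63, DESeq2 adjusted p 6.85e-32, SE 0.0526), with 30.5% of its exon bases under opposite-strand exons. TOP1MT, the mitochondrial topoisomerase, rose by 0.36, and the nuclease MGME1 was lower (-0.41). Of 10 nuclear regulators, MYC (1.60, DESeq2 adjusted p 1.46e-180, SE 0.0556), ESRRA (0.46) and YY1 (0.23) were the 3 that passed, all higher, and MYC was also a DEG at the medium dose (0.70). NRF1, the factor named for the core motif above, was at -0.13 and did not pass.

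**Figure D5:**
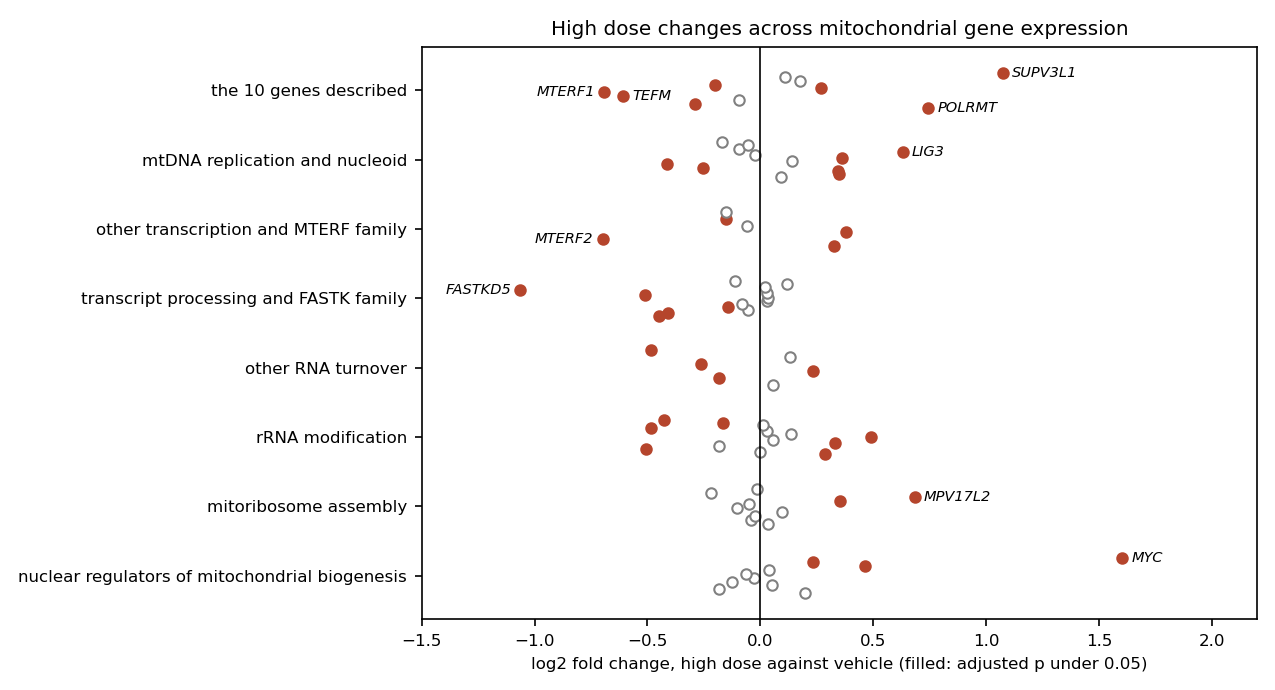
High dose log2 fold change against vehicle (horizontal axis) of the 10 genes described and of 70 genes in 7 lists of mitochondrial gene expression; each point is a gene, filled where the DESeq2 adjusted p was under 0.05, and DEGs are named. The extremes were MYC at 1.60 and FASTKD5 at -1.06, and both directions occurred among the 10.

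Over the 12 libraries the genes with log2 normalised counts most like those of SUPV3L1 included GOLGA5 (Pearson r 0.9987), a Golgi membrane protein, and WBP2 (0.9982), and 102 of 11263 genes had r over 0.99. The high dose log2 fold change of GOLGA5 was 0.97, and the libraries share the dose groups, so the likeness describes this order of doses.

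The nearest genes on the chromosome were looked up after the values of the 10 had been seen, among genes with a mean of at least 100 normalised counts. SUPV3L1 lies between VPS26A, a subunit of the retromer, 5.82 kb away (high dose log2 fold change 0.76, DESeq2 adjusted p 9.25e-75) and HKDC1, a hexokinase-like gene, 11.2 kb away, all on the plus strand. HKDC1 had means of 42.6, 58.5, 240 and 1142 from vehicle to the high dose, so that it met the limit of 100 only through the groups in which it was high, and its change is given as a description. VPS26A had means of 1826 ± 59.8 with vehicle, 1885 ± 45 at the low, 2082 ± 35.1 at the medium and 3094 ± 49.5 at the high dose (SD, n = 3), an order of doses like that of SUPV3L1. Near TEFM, ATAD5 on the opposite strand, 1.47 kb away, fell by 0.88 on the log2 scale (DESeq2 adjusted p 1.14e-21), while RNF135, 64.7 kb away on the other side, rose by 0.69 (DESeq2 adjusted p 4.11e-10). SNW1 overlaps SLIRP on the opposite strand and rose by 0.16 (DESeq2 adjusted p 0.00641), where SLIRP fell. In 3 other close pairs the partners were not both called. HCN2, 62 bases from POLRMT on the opposite strand, was at -0.16 (DESeq2 adjusted p 0.261), ALKBH1, 48 bases from SLIRP, was at 0.04 (DESeq2 adjusted p 0.821), and CNST, 183 bases from TFB2M, rose by 0.54 (DESeq2 adjusted p 3.5e-12) where TFB2M did not pass.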

How the data were processed

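RNA sequencing libraries of SW1783 cells were grouped by their titles and treatment labels. The authors made directional mRNA libraries, ran FastQC 0.11.9 and Trim Galore 0.6.5, aligned reads to GRCh38 with STAR 2.7.3a and counted genes with RSEM 1.3.3 (versions from the submitters' processing notes). They deposited expected counts, 8.75% of them not whole, which were rounded here. RSEM shares reads that fit several genes among them, so counts of genes with near copies are estimates. Symbols and coordinates came from GENCODE v44, which held 93.2% of the IDs, and promoters from RefSeq on GRCh38.p14, a table with 10 of 10 genes.

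DESeq2 1.42.0 (R 4.3.3) was fitted to all genes in the 12 libraries with a term for group, and its Wald tests were two-sided and Benjamini-Hochberg adjusted over all genes with an adjusted p. The threshold was 0.05, and a DEG also changed over 1.5-fold. Alternatives were edgeR 4.0.16 (quasi-likelihood), TMM factors, size factors without chromosome M, a low count filter, no independent filtering or filtering at 0.1 in place of 0.05, the 2 groups alone, a block on replicate number, and each library left out in turn. On simulated counts both tools were tested and gave back known changes. Total counts, between 18863863 and 24200576, set the counting error. Replicate pairs differed by more than counting noise (chi-square per degree of freedom 2.06 to 3.77), so all 12 libraries were kept. By their deviations from group means, same-numbered libraries of the medium and low dose correlated (r 0.124 to 0.193 over 3 pairs, beside -0.158 to -0.00635 over 6 pairs of other numbers), so the numbers may pair these groups. Deviations cancel out within a group, so positive r in same-numbered pairs pulls the other pairs down, and these are no separate check. Same-numbered pairs with the vehicle all had r below 0, and of those between the high and another dose 1 of 3 had r over 0.1 for each. The labels do not say what a number shares.

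The 10 genes and the gene lists were chosen with earlier results of these data known. The other genes named were the up to 3 largest high dose changes of each list with an adjusted p under 0.05 and a mean of at least 100 normalised counts, the 3 genes most like the most changed of the 10, both rRNAs, and the mRNAs with the lowest and highest high dose change. MT-ND1, MT-ND6, the other mRNAs, NRF1 and the chromosomal neighbours were named after their values were seen. A gene that met the rule is not reported here.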

Additional observations from a re-analysis of the deposited data

How the results depend on the processing

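Of 291 recomputed counts and shares 278 stayed within 1.5 times the count reported or 1 SD of the share, and of 1380 recomputed values of single genes 1351 kept direction and side of the threshold, 7 newly passed, 16 no longer passed and 6 changed sign. The DEG count among the 10 genes at the high dose lay between 3 and 4. It was 3 without vehicle replicate 1 (3269 of 18091 genes) or high dose replicate 3 (3251 of 17478 genes). Their count by adjusted p lay between 6 and 9. The 9 came from edgeR, which passed 10460 of 15983 genes. The 6 came from leaving out vehicle replicate 3 (8195 of 18108 genes). By adjusted p, edgeR counted 6 of the 10 at the medium dose, beside 5695 of 15983 genes. From the low to the medium dose it counted 3 of the 10, beside 3807 of 15983 genes. For that step TMM factors (2619 of 14082 genes) and the low count filter (2870 of 13812 genes) each gave 2 of the 10. Leaving out a library gave 1 to 2. The values that changed sign did not pass before or after, and each did so when a library was left out: SLIRP at the medium dose, with a log2 fold change between -0.0788 and 0.0287 over these fits, MTPAP at the low dose (-0.0197 to 0.0930), and PNPT1 from the medium to the high dose (-0.0189 to 0.0290).

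With counts off chromosome M as denominator the rRNA share exceeded that of the vehicle by 2.4, 7.78 and 5.55 percentage points (from the low to the high dose), and the mRNA share differed by -1.27 and -0.841 at the medium and high dose. Without MT-ND1 and MT-ND2 the rRNA to mRNA ratio exceeded that of the vehicle by 0.805, 3.13 and 1.9. Same-numbered libraries of the medium and low dose deviated together, as given with the processing, and the block changed no call among the 10 genes between those doses. In each other comparison at most 1 of 3 same-numbered pairs had r over 0.1, and 6 of 12 libraries correlated best with their own number. A fit with the replicate number as a block called 4 DEGs among the 10 at the high dose, beside 3297 of 17667 genes. It passed 7 of the 10 in the likelihood ratio test, beside 8064 of 17667 genes. Under this block the medium to high change of MT-RNR1 (-0.17, DESeq2 adjusted p 0.0972) and the high dose change of TFB1M (DESeq2 adjusted p 0.0688) did not pass. The cause of these shifts was not tested. Among the 10 genes the high dose standard errors ran from 0.0318 for LRPPRC to 0.129 for TEFM, which had the highest and the lowest mean normalised count, and at the low dose the counts of TEFM were too few for DESeq2 to adjust its p.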
